A study of Mus musculus with 14 samples.

Results

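The comparison asked whether promoter contacts in the second pharyngeal arch (PA2) of embryos without Hoxa2 resemble those of the mandibular process (Md). It used 2 promoter capture Hi-C (PCHi-C) libraries from Hoxa2EGFP/EGFP PA2 at E10.5 and 2 from wild-type Md at E10.5, 4 of the 14 libraries of the series, with 2 wild-type PA2 libraries at E10.5 as the other reference. The wild-type cranial neural crest cells (CNCCs) came from Wnt1::Cre embryos with a ROSA-tdRFP reporter and were sorted by RFP. The knockout cells came from homozygous embryos of a Hoxa2wt/EGFP intercross, in which an EGFP cassette takes the place of Hoxa2, and were sorted by GFP. The knockout carried neither Wnt1::Cre nor the RFP reporter, so the loss of Hoxa2, the transgenes, the sort and the cross cannot be told apart in any difference between knockout and wild type. All embryos were on a mixed C57Bl/6J and CD1 background. The frontonasal process (FNP) and maxillary process (Mx) at E10.5, 4 libraries in all, and the pinna at E12.5 and E14.5, 4 libraries in all, were wild type and served as outside references: FNP and Mx, like Md, do not express Hox genes, and the pinna, the external ear, is built largely from PA2.

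Each list gives a promoter-bearing HindIII fragment (the bait), the fragment it contacts (the other end) and a CHiCAGO score, which weighs the evidence for a contact against the background expected at that distance within the same library. A pair was in a list if its score was 5 or more, and a pair that a library did not list was set to 0. Contacts in both Md libraries and in no wild-type PA2 library were called Md-only, and the reverse PA2-only. There were 10410 Md-only and 8458 PA2-only contacts among the 837042 same-chromosome pairs listed in any library. These sets were chosen on the Md and wild-type PA2 libraries, so their values there are a description, and the knockout, FNP, Mx and pinna libraries were not used to choose them.

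Hoxa2 is a homeodomain transcription factor and the main selector gene of PA2: without it, PA2 neural crest forms skeletal elements of the kind made by PA1, in mirror image, in place of its own. CNCCs of PA1, including the mandibular process, express no Hox genes, and there the Hox clusters are held silent by Polycomb proteins. Distal enhancers act on promoters that they contact in the folded chromosome, and in PCHi-C such contacts appear as pairs scoring above the distance background. The Hoxa2 promoter has 3 distal regulatory regions on chromosome 6, the super-enhancer SE1 and the elements HIRE1 and HIRE2 (Hoxa inter-TAD regulatory elements), all at lower coordinates than the cluster. The Hoxa2 bait itself (chr6:52162863-52166906, GRCm38) carries the EGFP allele in the knockout.

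The sequences of 4 short fragments that the Hoxa2 bait contacted in 1 arch are shown because their contacts separate the groups. They were read on the plus strand of GRCm38, and capitals mark the parts of the HindIII site left at each end by the cut. The pair of SE1 fragments, at chr6:51170011-51170249 and chr6:51170250-51170425, lies between Gm32328 and Gm32403 in the RefSeq annotation, and the HIRE1 fragment at chr6:50977077-50977302 lies in an intron of Gm38809. The fragment contacted in Md, at chr6:52005815-52005999, lies in an intron of Skap2, a gene between SE1 and the cluster.
SE1, left fragment: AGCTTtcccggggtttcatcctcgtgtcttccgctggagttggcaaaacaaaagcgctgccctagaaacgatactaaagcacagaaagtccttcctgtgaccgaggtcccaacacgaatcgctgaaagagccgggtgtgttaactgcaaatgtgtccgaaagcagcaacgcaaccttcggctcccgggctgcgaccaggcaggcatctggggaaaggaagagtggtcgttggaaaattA
SE1, right fragment: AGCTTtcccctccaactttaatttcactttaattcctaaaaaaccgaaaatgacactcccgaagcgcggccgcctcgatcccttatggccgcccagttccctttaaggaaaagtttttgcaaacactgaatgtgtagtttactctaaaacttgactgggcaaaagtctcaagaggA
HIRE1 fragment: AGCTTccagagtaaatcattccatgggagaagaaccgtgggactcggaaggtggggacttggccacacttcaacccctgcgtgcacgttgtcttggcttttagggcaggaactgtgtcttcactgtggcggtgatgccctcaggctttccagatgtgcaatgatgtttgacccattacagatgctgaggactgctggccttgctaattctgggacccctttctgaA
Skap2 intron fragment: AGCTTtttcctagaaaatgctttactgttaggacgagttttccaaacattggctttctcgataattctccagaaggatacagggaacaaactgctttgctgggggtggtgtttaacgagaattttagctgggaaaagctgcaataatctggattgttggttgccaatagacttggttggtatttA
All 19131 chromosome 6 fragments in the lists had a HindIII site at both ends in this build. The letters TGATNNAT, a core that HOX and PBX proteins bind together, and TGACAG, bound by MEIS proteins, were searched on both strands. Neither was in any of these 4 sequences. They were in 11.6% and 15.1% of the 438 listed chromosome 6 fragments of 150 to 300 bases.

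Several libraries stood apart before any comparison. The knockout lists were the shortest, with 113643 and 120829 same-chromosome pairs, against 140527 and 145006 in wild-type PA2 and 173454 and 176734 in Md. Pairs between chromosomes made up 46.5% of the list of Md replicate 1 and 62.7% of that of E12.5 pinna replicate 2, both marked as merged, and 2.64 to 5.61% of the other 12 lists. The 2 knockout libraries resembled each other more than any other pair of libraries, with Pearson's r = 0.61 across the scores of all tested pairs and 39.2% of their listed pairs shared. The other 6 replicate pairs had r = 0.32 to 0.39 and shared 21.9 to 30.2%, and libraries of different groups had r = 0.16 to 0.41. Across pairs, which are not independent replicates, knockout against Md libraries had r = 0.22 to 0.24 and knockout against wild-type PA2 libraries r = 0.25. The number of reads behind a score is not in the lists, so depth is unknown and no counting error could be given for a score. The labels were borne out at the transgene: the baits of Wnt1 and Ddn, left out of every count, listed 385 to 728 pairs with chromosome 11 in the 12 Wnt1::Cre libraries and 0 in both knockout libraries. Within 2 Mb of the strongest of these chromosome 11 fragments (chr11:6468951-6471178), 2 of 414 tested pairs were called higher and 5 lower in the knockout than in Md. Over all 158981 tested pairs, 557 (0.35%) were called higher and 2871 (1.81%) lower.

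At the Hoxa2 promoter, the knockout listed most of the PA2-only contacts and lacked most of the Md-only ones. The knockout cells were sorted by GFP made from the Hoxa2 locus itself, and the wild-type cells by RFP from the ROSA reporter. Likeness to PA2 at this bait therefore cannot be told apart from the sort, and the part of the sort was not tested. Of the 29 PA2-only contacts of Hoxa2, 21 were in both knockout libraries, 5 in 1 and 3 in neither. Of its 17 Md-only contacts, 1 was in both knockout libraries and 16 in neither. The FNP and Mx libraries, which are Hox-negative like Md, on average listed 89.7% of the Md-only and 1.72% of the PA2-only contacts of Hoxa2, and the pinna libraries 1.47% and 55.2%. The knockout listed 5.88% and 81.0%.

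SE1 was contacted at 11 fragments in each wild-type PA2 library and at 9 in each knockout library. In Md, 2 and 3 SE1 fragments were listed, and in FNP and Mx 3 or 4. The left SE1 fragment printed above scored 0 in both Md libraries, 28.9 and 53.4 in wild-type PA2, and 34.95 and 33.00 in the knockout. It scored 6.13 and 6.03 in FNP, 0 in both Mx libraries and 11.4 to 62.5 in the pinna. The right SE1 fragment scored 0 in both Md libraries, 21.3 and 36.3 in wild-type PA2 and 24.9 and 26.9 in the knockout. For both fragments the knockout libraries lay between the wild-type PA2 libraries and far from Md. The SE1 end nearest the cluster was shared by all arches: the fragment at chr6:51173834-51180766 scored 34.3 and 33.4 in Md, 65.8 and 80.6 in wild-type PA2, and 30.9 and 24.3 in the knockout.

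HIRE1 was contacted at 25 and 30 fragments in wild-type PA2, at 22 and 23 in the knockout, and at none in Md, FNP or Mx. Its strongest fragment, at chr6:50977303-50981733 and 1185 kb from the bait, scored 33.9 and 33.6 in wild-type PA2, 33.9 and 31.3 in the knockout, and 0 in both Md libraries. In the pinna it scored 0 to 5.76. The HIRE1 fragment printed above scored 6.36 and 8.36 in wild-type PA2 and 13.5 and 15.4 in the knockout, and was in no other library. Some HIRE1 fragments scored lower in the knockout: that at chr6:51003543-51004626 had 20.7 and 22.1 in wild-type PA2 and 6.14 and 7.48 in the knockout, and that at chr6:50942643-50943261 had 19.3 and 28.4 against 6.16 and 5.53. HIRE2 was not listed in Md or in the knockout, and was in wild-type PA2 replicate 2 alone of the PA2 libraries, at 3 fragments with scores up to 13.2. The pinna libraries listed 3 to 7 HIRE2 fragments.

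**Figure D1:**
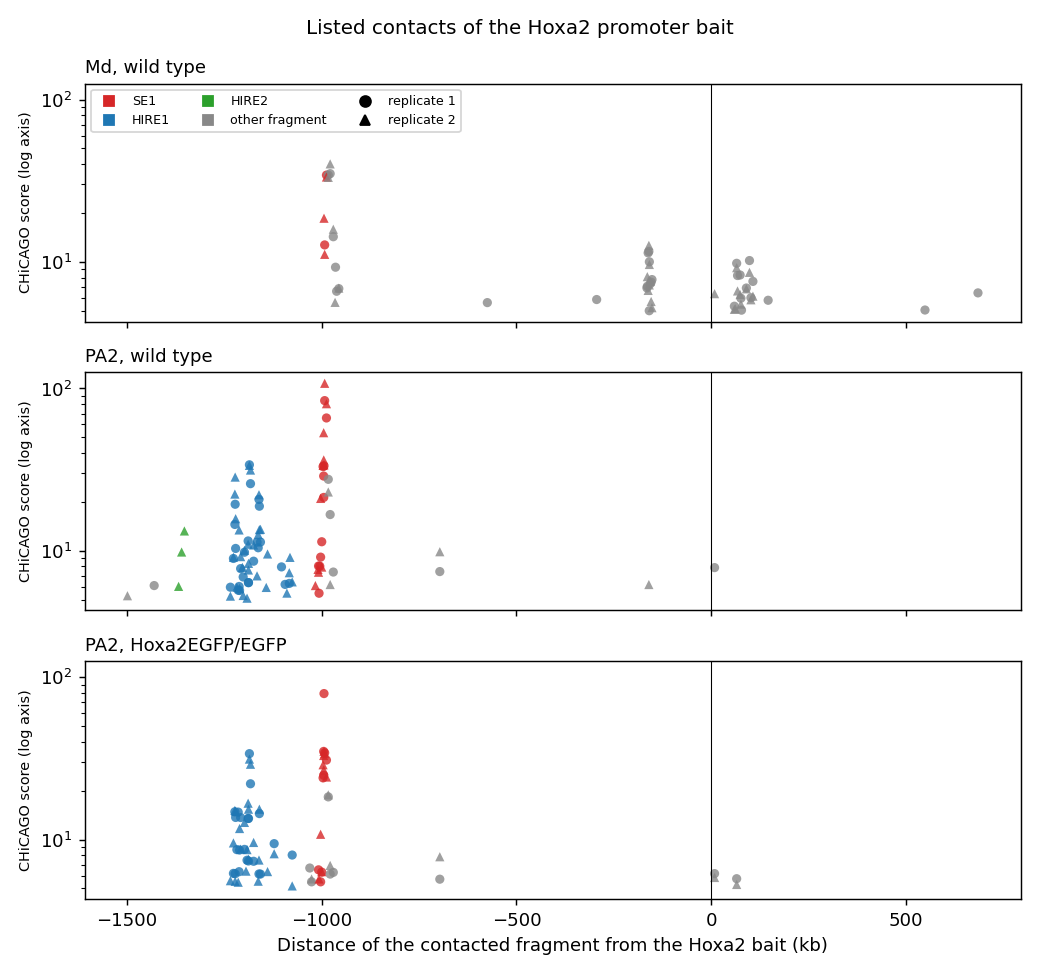
CHiCAGO score (log axis) of each listed contact of the Hoxa2 bait against the distance of the contacted fragment from the bait in kb, negative toward SE1, for Md, wild-type PA2 and Hoxa2EGFP/EGFP PA2; circles are replicate 1 and triangles replicate 2. The knockout shows the HIRE1 and SE1 contacts of PA2 and, on the other side of the bait, where Md has many contacts within the cluster, only those with the Gm15050 and Hoxa9 fragments.

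Of the 17 Md-only contacts of Hoxa2, 16 were with the Hoxa9 to Hoxa13 end of the cluster or with the region around Skap2, and 1, at chr6:51205165-51212855, lay 956 kb away beside SE1, with scores of 6.84 and 6.89 in Md. Those toward Hoxa9, Hoxa10 and Hoxa13, posterior Hox genes that are silent in the head, lay 59.5 to 107 kb from the bait. The fragment with the Hoxa13 start site scored 10.2 and 8.62 in Md, 7.81 to 11.6 in FNP and Mx, and 0 in both wild-type PA2 and both knockout libraries. The fragment with the Hoxa9 start site was the exception, with 9.80 and 9.21 in Md, 0 in both wild-type PA2 libraries, and 5.74 and 5.29 in the knockout. On the other side, the Skap2 intron fragment printed above scored 5.00 and 7.21 in Md, 5.20 to 7.46 in FNP and Mx, and 0 in all PA2, knockout and pinna libraries.

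Across all Md-only and PA2-only contacts, both knockout libraries listed a slightly larger share of the PA2-only than of the Md-only ones, and most of both sets were missing from the knockout. Of the Md-only contacts, 14.2% (95% Clopper-Pearson interval 13.6 to 14.9%) were in both knockout libraries, 19.7% in 1 and 66.1% in neither. Of the PA2-only contacts, 16.0% (15.2 to 16.8%) were in both, 18.8% in 1 and 65.2% in neither. These intervals cover the number of contacts alone, and contacts of 1 bait are not independent. Knockout replicate 1 listed 23.1% of the Md-only and 24.9% of the PA2-only contacts, and replicate 2 listed 25.1% and 25.98%. The Md-only share minus the PA2-only share was thus -1.74 and -0.91 percentage points, with a mean of -1.33 ± 0.58 (SD, n = 2). With the same number of top-scoring pairs kept in every library, it was -5.58 and -4.10, and 18.1% of Md-only and 22.7% of PA2-only contacts were in both knockout libraries. At a score threshold of 10 these shares were 9.89% and 14.9%.

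The outside references gave the range in which to read these shares. The difference was -0.41 and 5.48 percentage points in FNP, 6.49 and 3.96 in Mx, -5.45 and 0.65 in the E12.5 pinna, and -0.98 and 0.86 in the E14.5 pinna. The mean was 3.88 ± 3.05 (SD, n = 4) over FNP and Mx and -1.23 ± 2.93 (SD, n = 4) over the pinna. The knockout was 5.21 points below FNP and Mx, which a two-sided exact permutation test over libraries did not separate (p = 0.133, 0.267 after Benjamini-Hochberg adjustment over 2 comparisons, where 15 groupings allow no p below 0.0667). With equal list length the difference was -8.44 (exact permutation p = 0.0667, the smallest possible), and at a score threshold of 10 the difference was -7.94 (exact permutation p = 0.133). It was 0.10 points below the pinna (exact permutation p = 1, adjusted p = 1), with a difference of -3.69 at equal list length (exact permutation p = 0.4), and 0.53 points above it without E12.5 pinna replicate 2, so no side was resolved. A p above the threshold does not show that the knockout and either reference are alike. The direction against FNP and Mx turned when either Md library was left out of the choice of contacts, to 6.66 without Md replicate 1 and 11.7 without replicate 2, and the difference was -13.1 and -13.6 without PA2 replicate 1 or 2.

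**Figure D2:**
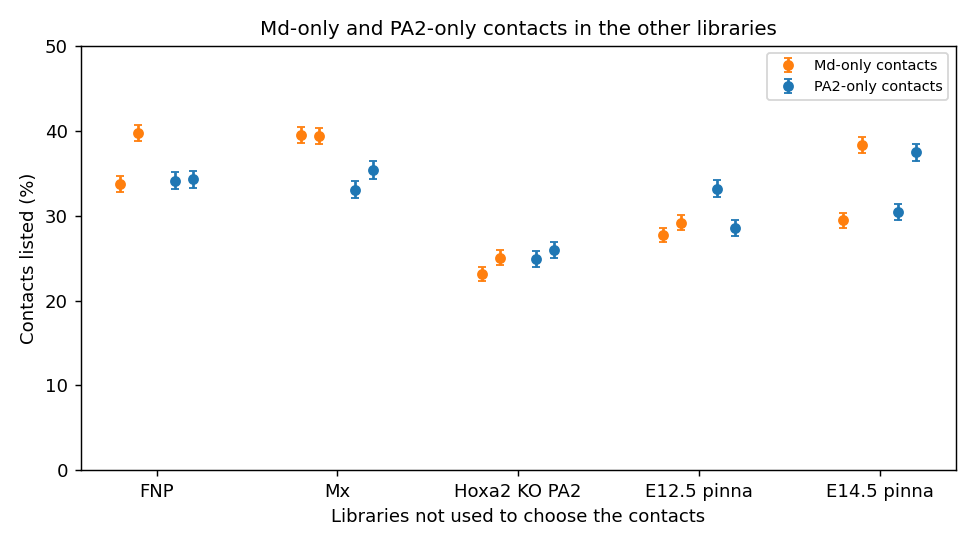
Percent of Md-only and PA2-only contacts listed in each library that was not used to choose them; each point is 1 library and bars are 95% Clopper-Pearson intervals over contacts. The knockout libraries sit at 23.1 to 25.98% for both sets, below all FNP, Mx and pinna libraries.

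The strength of the contacts changed this picture at its upper end, where Hoxa2 stood. With the lower of the 2 scores of the arch at 20 or more, there were 6 PA2-only contacts, all of the Hoxa2 bait, and all 6 were in both knockout libraries, against a mean of 8.33% in FNP and Mx and 79.2% in the pinna. With that score from 12 to 20, the 16 PA2-only contacts were listed at 50% and 62.5% in the knockout libraries, and 97 Md-only contacts at 30.9% and 28.9%. The 2 Md-only contacts at 20 or more, of the baits Hjurp;Trpm8 and Mroh2a on chromosome 1, were in neither knockout library. Without the Hoxa baits, 14.3% of Md-only and 15.8% of PA2-only contacts were in both knockout libraries.

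The knockout was also set beside the other replicate of each arch, since many listed contacts did not recur between replicates. Contacts were taken from 1 library if neither library of the other arch listed them, and were then sought in libraries that had no part in the choice. Contacts of PA2 replicate 1 were in 14.8% of cases also in PA2 replicate 2, and in 10.6% and 11.4% of cases in the knockout libraries. Contacts of PA2 replicate 2 recurred at 14.2% in PA2 replicate 1 and at 10.1% and 10.9% in the knockout. For Md, 10.8% and 12.3% recurred in the other Md library, and 6.19 to 9.76% in the knockout libraries. The FNP and Mx libraries listed 13.2 to 14.6% of the PA2 contacts and 8.58 to 15.4% of the Md contacts. The other replicate of the same arch thus lay close to the range of the other wild-type E10.5 libraries. The knockout shortfall was 3.74 points for PA2 contacts and 3.70 for Md contacts, and 7.92 and 7.99 points at a score threshold of 10. With the same number of top-scoring pairs kept in every library it was 2.16 and 0.83 points, and the knockout then listed 15.2 to 16.0% of the PA2 contacts and 7.61 to 11.6% of the Md contacts. The part of list length in the remaining shortfall was not tested.

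**Figure D3:**
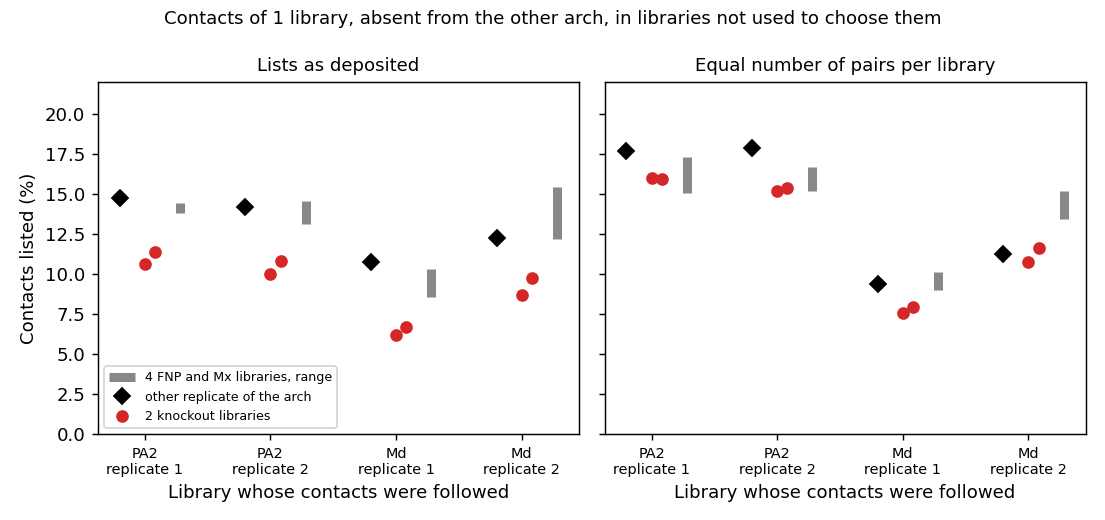
Percent of the contacts of 1 library, none of them in the other arch, that were listed in the other replicate of the same arch (diamonds), in each knockout library (circles) and in the 4 FNP and Mx libraries (grey bar, lowest to highest), with lists as deposited and with equal numbers of pairs per library. In the lists as deposited the knockout lies below the other replicate for all 4 libraries; with equal numbers it lies nearer to it, and for Md replicate 2 on both sides of it.

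By bait gene, the Md-only contacts of Hoxa2, Hoxb2, Pitx1 and Hand2 were almost all missing from the knockout. The PA2-only contacts of Hoxa2, Dlx1 and Dlx2 were mostly in at least 1 knockout library. Those of Dlx5 (3), Zfp703 (3) and Msx1 (2) were all in neither knockout library. Of the 2 PA2-only contacts of Dlx3, 1 was in 1 knockout library and 1 in neither. The 3 gene lists used held PA1 (first arch) genes and genes that Hoxa2 represses (13 genes), PA2 (second arch) genes and Hoxa2 targets (11), and patterning genes of both arches (13, of which Dlx6 had no bait). Of the Md-only contacts of the PA1 list, 3 of 33 were in both knockout libraries, 6 in 1 and 24 in neither. For the PA2 list these were 4, 4 and 47 of 55, and for the patterning list 3, 3 and 17 of 23. Of the PA2-only contacts, 5, 2 and 7 of 14 for the PA1 list, 24, 8 and 9 of 41 for the PA2 list and 11, 12 and 13 of 36 for the patterning list were in both, 1 or neither. Over all baits, 14.2% of Md-only and 16.0% of PA2-only contacts were in both knockout libraries and 66.1% and 65.2% in neither, so the Md-only counts of the PA1 and patterning lists lay near those of all baits. Hoxa2 alone supplied 21 of the 24 PA2-only contacts of the PA2 list that were in both knockout libraries.

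Pitx1, a homeodomain factor of the mandibular arch and hindlimb, had 11 Md-only contacts, 69.0 to 410 kb from its promoter. Of these, 10 were in neither knockout library and 1, at chr13:55944614-55950902, scored 8.54 in knockout replicate 1 and 0 in replicate 2. FNP and Mx listed 11.4% of them and the pinna 13.6%, so they were sparse in every library but Md. The Pitx1 bait had 28 and 35 listed pairs in Md, 13 and 10 in wild-type PA2, and 7 and 10 in the knockout. Md did not overlap with either PA2 genotype, and the knockout counts lay at or below those of wild-type PA2.

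Hand2, a basic helix-loop-helix factor of the distal arches, had 9 Md-only contacts, 460 to 794 kb away, of which 8 were in neither knockout library and 1 in replicate 1 with a score of 5.08. FNP and Mx listed 2.78% of them. Alx4, an aristaless-related homeodomain factor of craniofacial mesenchyme, had 7 Md-only contacts, of which 1 was in both knockout libraries and 5 in neither; that at chr2:93537999-93541863 scored 7.38 and 7.66 in Md, 0 in both wild-type PA2 libraries and 5.88 and 7.78 in the knockout. FNP and Mx listed 75.0% of the Alx4 contacts and the pinna 14.3%. Alx1, Gsc and Rspo2, other PA1 list genes, had 2 or 3 Md-only contacts each, of which 0 were in both knockout libraries. Lhx8 and Barx1 had no contact in either set.

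Hoxb2, the only other Hox gene on the lists, had 13 Md-only contacts, and none of them was in a knockout library. The fragment at chr11:96175369-96177529 scored 14.2 and 12.03 in Md, 9.05 to 12.4 in FNP and Mx, and 0 in all wild-type PA2 and knockout libraries. FNP and Mx listed 88.5% of the 13, and the pinna 7.69%. Of the Md-only contacts of Hoxa2 described above, 16 of 17 were likewise in neither knockout library. Meis1, which encodes a DNA-binding partner of HOX proteins, had 10 Md-only contacts on 2 baits, of which 8 were in neither knockout library and 2 in replicate 2. In contrast to Hoxb2, 62.5% of the Meis1 contacts were listed in the pinna, and FNP and Mx listed 77.5%.

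The Dlx1 and Dlx2 baits, neighbours on chromosome 2 that encode homeodomain factors of the proximal and distal arches, had more contacts in both PA2 genotypes than in Md. Dlx2 listed 13 and 21 pairs in Md, 49 and 38 in wild-type PA2 and 45 and 59 in the knockout. Its 16 PA2-only contacts were in both knockout libraries in 8 cases, in 1 in 5 and in neither in 3, and it had no Md-only contact. Dlx1 listed 12 and 22 pairs in Md, 35 and 39 in wild-type PA2 and 51 and 39 in the knockout, and all 8 of its PA2-only contacts were in at least 1 knockout library. For both genes Md did not overlap with either PA2 genotype. The contacted fragments lay mostly 153 to 391 kb away on the Slc25a12 and Dync1i2 side, and the fragment at chr2:71307633-71310035 scored 10.2 and 7.69 with Dlx2 in wild-type PA2, 5.34 and 7.41 in the knockout and 0 in Md. FNP and Mx listed 20.3% of the PA2-only contacts of Dlx2 and the pinna 28.1%.

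Six2, which encodes a homeodomain factor that Hoxa2 represses in PA2, had 6 PA2-only contacts, of which 2 were in both knockout libraries, 2 in 1 and 2 in neither, and none in FNP or Mx. The strongest, at chr17:85458325-85459285, scored 10.4 and 7.54 in wild-type PA2, 9.67 and 9.19 in the knockout, 6.05 and 6.45 in the E12.5 pinna and 0 in Md. The Hoxb3 bait at chr11:96321828-96327276 had 10 PA2-only contacts with 5 in both, and no Md-only contact. Over all its baits Hoxb3 had 8 Md-only contacts, of which knockout replicate 1 listed 3 and replicate 2 listed 2. FNP and Mx listed 81.25% of these 8 and the pinna 37.5%. Outside the Hox and Dlx genes, the baits with the largest numbers of PA2-only contacts in both knockout libraries were Kcnab3;Rnf227 (5 of 9), Ly6g6c;Ly6g6d;Mpig6b (5 of 6), Ccdc15 (5 of 7), 4933434E20Rik;Ubap2l (4 of 8) and Ccnd2 (4 of 4), a cyclin gene. The non-coding gene 5730596B20Rik, next to Hoxa3, differed from Hoxa2, with 7 of 10 PA2-only contacts in neither knockout library: its contact with the SE1 fragment at chr6:51167210-51170010 scored 17.5 and 14.6 in wild-type PA2 and 0 in both knockout libraries.

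**Figure D4:**
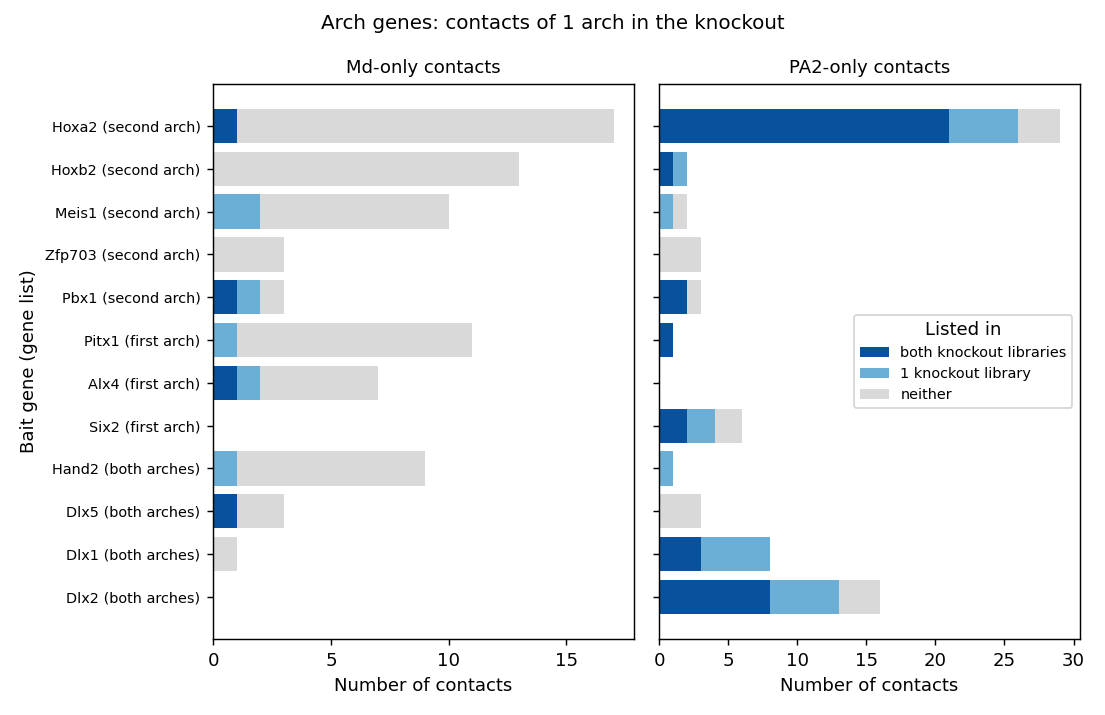
Number of Md-only (left) and PA2-only (right) contacts of each listed gene with at least 6 contacts over both sets, split by whether both, 1 or neither knockout library listed them. The Md-only bars of Hoxa2, Hoxb2, Pitx1 and Hand2 are almost wholly in neither library, and the PA2-only bars of Hoxa2, Dlx2 and Dlx1 are mostly in 1 or both. The PA2-only bars of Dlx5 and Zfp703 are wholly in neither.

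The baits with most Md-only contacts in both knockout libraries were not arch genes. Fxr2, which encodes an RNA-binding protein, had 25 Md-only contacts with 10 in both knockout libraries and 8 in 1. Oaz1, which encodes an inhibitor of polyamine synthesis, had 11 with 9 in both. FNP and Mx listed 84.0% of the Fxr2 and 84.1% of the Oaz1 contacts, and the pinna 82.0% and 45.5%. These contacts were thus present in most libraries and missing from wild-type PA2, rather than being shared by Md and the knockout alone. Fxr2 contacted the fragment with the Acap1 start site with scores of 14.9 and 35.2 in Md, 0 in both wild-type PA2 libraries, 11.9 and 18.4 in the knockout and 12.46 to 36.3 in the other 8 libraries. Hjurp;Trpm8 had 55 Md-only contacts with 7 in both knockout libraries and 36 in neither. Edrf1, Dhrs3, Krtap1-5 and Gm25273 had 4 each in both knockout libraries, and Btn2a2, Chordc1 and Saysd1 had 3 each. The baits with most PA2-only contacts in neither knockout library were, beside 5730596B20Rik, Zik1 (8 of 9), Gm15700 (8 of 10), Tcf12 (7 of 9), Gm25045 (7 of 7), Mogs;Wbp1 (7 of 7), S100a7a (6 of 10), Calml3 (6 of 11), Gm22748 (6 of 7) and Vps45 (6 of 9).

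Scores were then compared pair by pair with limma across all 14 libraries, on the asinh scale, which is close to linear near 0 and logarithmic for large scores. Of 158981 pairs tested, 557 (0.35%) were called higher and 2871 (1.81%) lower in the knockout than in Md at a Benjamini-Hochberg adjusted p under 0.05. Against wild-type PA2, which shares the knockout libraries with that comparison, 571 (0.359%) were higher and 2760 (1.74%) lower. Wild-type PA2 against Md gave 10 (0.00629%) higher and 25 (0.0157%) lower. The median of all pairs was -0.13 for knockout minus Md, -0.09 for knockout minus wild-type PA2 and 0 for wild-type PA2 minus Md, on the asinh scale. A call is least sure where 1 group lists nothing and the scores of the other are low, so the results below start from the strong pairs, in which both scores of the higher group were 10 or more. These were 26 higher (0.0164%) and 655 lower (0.412%) in the knockout than in Md, 18 (0.0113%) and 621 (0.391%) against wild-type PA2, and 4 (0.00252%) and 10 (0.00629%) for wild-type PA2 against Md.

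Of the 26 strong pairs higher in the knockout than in Md, 8 were contacts of Hoxa2. The largest difference was that of Hoxa2 with the left SE1 fragment, 4.22 ± 0.36 (SE) on the asinh scale (limma adjusted p = 0.00044), where wild-type PA2 minus Md was 4.36 and knockout minus wild-type PA2 -0.14. The strongest HIRE1 fragment differed by 4.18 ± 0.55 from Md (limma adjusted p = 0.0025). Of the 26, 21 were in both wild-type PA2 libraries and 5 in neither: single contacts of Chordc1, Cdc42ep5 with Tnni3, Pan2 with Esyt1, Exoc2;Hus1b, and Ppid. The contact of Ppid, a cyclophilin gene, scored 10.3 and 12.2 in the knockout, 0 in Md and wild-type PA2, and 5.09 to 8.92 in FNP and Mx. Jun, which encodes an AP-1 subunit, had a contact 619 kb away that scored 10.6 and 10.9 in the knockout, 6.66 and 10.1 in wild-type PA2 and 0 in Md. A contact of Hjurp;Trpm8, 84179 kb away, scored 17.4 and 11.9 in the knockout, 7.34 and 13.3 in wild-type PA2 and 0 in Md.

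The 655 strong pairs lower in the knockout than in Md were, for the most part, lower than in every wild-type group. Of them, 543 (82.9%) were in all 12 wild-type libraries, 444 were in neither knockout library, and 14 were in no wild-type PA2 library. Their median difference was -3.20 against Md and -2.90 against wild-type PA2, and -0.17 between wild-type PA2 and Md. The wild-type libraries listed 93.0 to 100% of them and the knockout libraries 31.6% and 32.1%. A pair listed in Md alone was in too few libraries to be tested. The spread was drawn from all groups, which favours pairs listed alike in both replicates of each group. Presence in the other wild-type tissues was therefore partly set by the choice of pairs. These pairs were lower in the knockout than in Md, and they cannot place the knockout with either arch. Whether loss of Hoxa2, the sort, the transgenes or library preparation goes with them cannot be told apart.

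**Figure D5:**
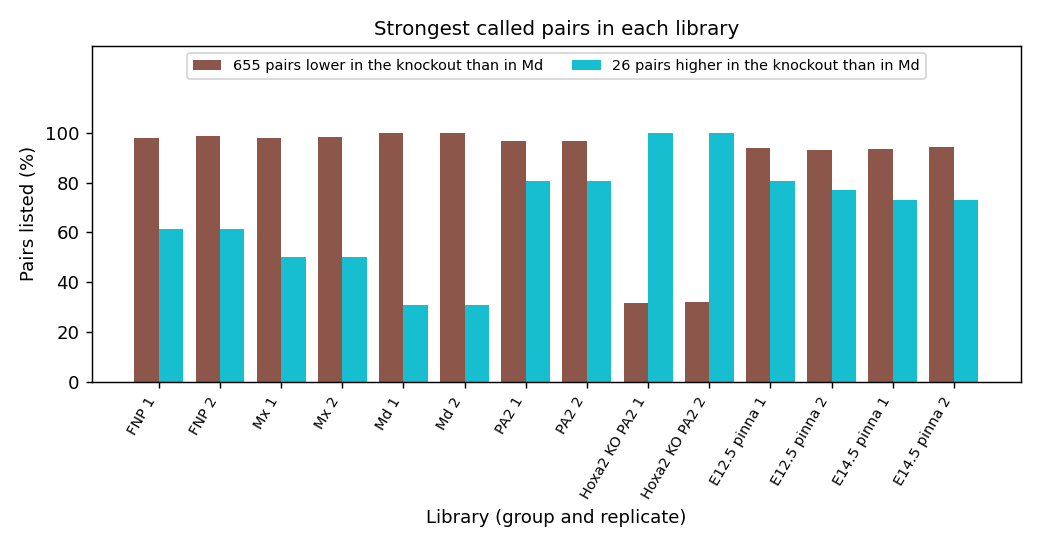
Percent of the 655 strong pairs lower and the 26 strong pairs higher in the knockout (KO) than in Md that were listed in each of the 14 libraries. Md and knockout values follow from the choice of the pairs, and those of the other libraries do so in part, since pairs listed in few libraries were not tested. The lower pairs are in 93.0% or more of cases listed in the other wild-type libraries as well. The higher pairs are listed at 80.8% in both wild-type PA2 libraries.

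Replication-dependent histone genes of the Hist1 cluster on chromosome 13 were on a bait in 79 (12.1%) of the 655 pairs, and 1613 of all tested pairs had such a bait. The contact between the fragments with Hist1h2ak;Hist1h2bn and Hist1h2ae, 1812 kb apart, scored 32.8 and 33.5 in Md, 32.4 and 33.5 in wild-type PA2 and 0 in both knockout libraries, a difference from Md of -4.20 ± 0.17 (SE, asinh scale; limma adjusted p = 1.26e-05). The other Hist1 pairs among the 10 largest decreases, with Hist1h3e, Hist1h2ag;Hist1h4i and Hist1h1d;Hist1h4f, were likewise at 0 in both knockout libraries and at 7.49 or more in all 12 wild-type libraries. On chromosome 12, Cpsf3, a subunit of the mRNA 3′ end cleavage complex, had 29 of the 655 pairs, Iah1 26 and Adam17 9. A pair was counted for every gene on it, so these counts can overlap. The pairs of Cpsf3 and those of Iah1 had the same extremes, -3.86 and -3.12. Strong pairs lower than in Md were 0.412% of all tested pairs. Gpaa1 with Plec and with Parp10, Pcolce with Mospd3, Dmrta2 with Tal1, and Gm23061 made up the rest of the 10 largest decreases, all at 0 in both knockout libraries.

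Some of these decreases belonged to baits that gave no contact at all in the knockout. There were 13 baits with no listed pair in either knockout library and 5 or more in each of the 12 others: Borcs5, Pltp, Pcolce, Gna11, Olfr1099, Ash1l, Zfp493, Ccdc163;Mmachc, Gm24403, Eif3i;Tmem234, Gpaa1, Zmpste24 and 6030445D17Rik. The Borcs5 bait listed 12 to 34 pairs in the other libraries. The same rule found 1 bait in the E14.5 pinna and 0 in every other group. Baits without a listed pair in either knockout library carried 44 (6.72%) of the 655 strong pairs. Whether these baits were captured in the knockout libraries was not tested.

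Of all tested pairs, 0.35% were called higher and 1.81% lower in the knockout than in Md, and the PA2 list lay above both shares. Of 333 tested pairs with a PA1 list bait, 2 (0.601%) were higher and 6 (1.80%) lower in the knockout than in Md. Of 367 with a PA2 list bait, 16 (4.36%) were higher and 23 (6.27%) lower, and of 382 with a patterning bait 2 (0.524%) and 10 (2.62%). Hoxa2 accounted for 15 of the 16 higher pairs of the PA2 list, and had 6 lower pairs among its 60. Hoxb2 and Meis1 each had 5 lower pairs and no higher one, and Wnt5a, a signalling ligand, had 4 lower. Six2 had 2 higher and 1 lower, Dlx1 2 higher, and Pitx1 none of 18, with a median difference of -1.81 from Md and -0.71 from wild-type PA2.

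Means over all tested pairs of a bait, centred on each library's median bait, gave 40 baits (0.403%) higher and 36 (0.363%) lower in the knockout than in Md among 9920 tested, against 7 (0.0706%) and 14 (0.141%) for knockout against wild-type PA2. Between wild-type PA2 and Md limma called 0 baits either way, with 729 at an unadjusted p under 0.05. The centring mattered, since the median bait was 1.16 and 1.23 in the knockout against 1.46 and 1.74 in Md: without it, 7 baits were higher and 320 lower. With any 1 Md or knockout library left out, 3 to 6 baits were called. Such a fit has 1 library in that group, which is assumed to vary like the other groups. Among arch genes, Dlx2 was called higher than in Md, by 1.65 ± 0.31 (SE, asinh scale; limma adjusted p = 0.026). Its centred mean was -0.63 and -0.51 in Md, 0.77 and 0.62 in wild-type PA2 and 0.99 and 1.17 in the knockout. Dlx1 (1.35 ± 0.33, limma adjusted p = 0.069) and Fzd4 (1.16 ± 0.30, limma adjusted p = 0.073), a Wnt receptor gene, did not pass.

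Gm23253, at chr2:71490717-71497722 beside Dlx1 and Dlx2, was among the 10 baits with the largest increases, and its centred mean was -1.46 and -1.24 in Md, 0.56 and 0.39 in wild-type PA2 and 0.53 and 0.43 in the knockout. Smpdl3b, Gm37088;Mir1843b;Scarna3a, Gm15423 and Pla2g2f, by contrast, differed between wild-type PA2 and Md by -0.05 to 0.09 and from wild-type PA2 to knockout by 1.83 to 2.17. Btbd17;Gpr142, Snx24, Cacna2d1, Cacna1c and 1700066B19Rik;Dnajc18 lay between. The 10 largest decreases were of Gpaa1, Pcolce, Pltp, Taf8, Siah2, Zmpste24, Mrpl12, Olfr905, Apba3;Matk;Mrpl54 and Fbxw9, from -2.02 to -2.80. Of these, Gpaa1, Pcolce, Pltp, Taf8, Siah2, Zmpste24 and Olfr905 had 0 listed pairs in both knockout libraries. Their knockout means were thus at the lowest possible value, and whether the baits were captured there was not tested. Taf8 and Olfr905 also had 0 listed pairs in both E12.5 pinna libraries. Gpaa1, whose product attaches GPI anchors, differed by -2.80 ± 0.25 (SE, asinh scale) from Md (limma adjusted p = 6.48e-05) and by -2.49 from wild-type PA2.

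The pairs that did separate the wild-type arches were also read in the knockout. All 10 pairs called higher in wild-type PA2 than in Md were in both knockout libraries, among them 3 of Hoxa2 and 6 that were in all 4 FNP and Mx libraries as well. Of the 25 pairs called lower in wild-type PA2 than in Md, 23 were in both knockout libraries, all 25 were in all 4 FNP and Mx libraries, and 8 were of Fxr2. The 2 that the knockout lacked were Pcdh20 and the contact of Fxr2 with Gps2;Neurl4. Thus 31 of the 35 pairs that separated the arches were missing from 1 arch and present in all 4 FNP and Mx libraries. A pair missing from 1 arch was tested only if libraries beyond those of the other arch listed it. The spread was drawn from all groups, the knockout included, which favours pairs listed alike in both replicates of each group. Presence in FNP, Mx and the knockout was therefore partly set by the choice of pairs, and these counts cannot place the knockout with either arch. With 1 wild-type PA2 library left out, 327 or 366 pairs separated the wild-type arches.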

How the data were processed

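PCHi-C lists were analysed from 14 libraries in 7 groups of 2, which the study's methods call biological replicates. Per the labels and methods, the authors mapped reads with HiCUP to GRCm38 (mm10; bcl2fastq 2.17 in the submitters' processing notes) and scored pairs with CHiCAGO, which yields the deposited score; no list held a score under 5, and read counts were not used here. The members and lists were chosen with earlier results of these data known. Same-chromosome pairs were used, without the 2 baits of Wnt1 and Ddn, and an unlisted pair was set to 0. Identical scores such as 34.26 recurred among the strongest contacts, so no order was read among them.

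Pairs at 5 or more in at least 4 of 14 libraries were compared on asinh(score) with limma 3.58.1 (R 4.3.3; 7 group means, eBayes with trend, Benjamini-Hochberg adjusted p 0.05), and baits by the mean over at least 5 tested pairs, centred on the median bait. On simulated scores the pair test called more unshifted pairs than its threshold allows where 1 group was unlisted and scores were under 10, and few where both scores were 10 or more; the strong pairs were added after seeing the data. Shares of contacts were compared between libraries by exact permutation tests (Python 3.11.15, two-sided). Intervals are 95% Clopper-Pearson. Sequences are from the RefSeq GRCm38.p6 assembly. Named genes were the 3 gene lists, the 10 pairs and 10 baits with the largest difference each way among called ones whose groups do not overlap, and the 10 bait genes with most contacts in each class; those outside it were named after their values were seen. The replicate numbers did not pair the libraries. Alternatives were the filter, the value of unlisted pairs, the scale, normalization, equal list length, a score threshold of 10, distance, the fit and leaving out libraries. Some members of these lists are not reported here.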

Additional observations from a re-analysis of the deposited data

Results flagged for a closer look

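The Wnt1 and Ddn baits, which were left out of every comparison, listed between 385 and 728 pairs with chromosome 11 in the 12 libraries from Wnt1::Cre embryos and 0 in the 2 knockout libraries, whose embryos carry no Wnt1::Cre. The signal stands in data that no comparison used. The baits lie on chromosome 15, so all of these pairs join different chromosomes.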

How the results depend on the processing

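Against FNP and Mx, the knockout difference in percentage points ranged from -13.6 to 11.7 with 1 library left out, and turned sign without Md replicate 1 (6.66) or Md replicate 2 (11.7); against the pinna it ranged from -4.61 to 6.30, and turned sign without Md replicate 1 (4.40), Md replicate 2 (6.30), knockout replicate 1 (0.32) and E12.5 pinna replicate 2 (0.53, chosen after seeing the data), at a score threshold of 10 (0.0559), within 2 Mb (0.31) and without Hoxa baits (0.0305). Sets chosen on 1 library of an arch hold contacts that the other need not list, so they change by construction. The percent of Md-only contacts in both knockout libraries was 9.89 at a threshold of 10, 18.1 at equal list length, 15.4 within 2 Mb and 3.42 to 25.1 with 1 library left out; for PA2-only contacts it was 14.9, 22.7 and, with 1 left out, 5.71 to 25.98. The shortfall of the knockout against the other replicate was 2.16 points (PA2) and 0.83 (Md) at equal list length and 7.92 and 7.99 at a threshold of 10. Called pairs, 3428 in all, were 12714 with the filter at 2 libraries, 17479 with 6 libraries in the fit, 405 with unlisted pairs at 5, 756 at a threshold of 10 and 2205 at equal list length (592 higher, 1613 lower), and 2928 to 4187 with 1 library left out. Strong pairs, 681 in all, were 1532 with 6 libraries in the fit, 274 with unlisted pairs at 5 and 435 without trend, and 689 to 941 with 1 left out. Called baits, 76 in all, were 327 without centring (7 higher, 320 lower), 17 at a threshold of 10 (13 higher, 4 lower), 122 at equal list length (44 higher, 78 lower), 36 with 6 libraries in the fit, 99 without E12.5 pinna replicate 2 and 3 to 6 with 1 left out. Numbers shared by replicates did not pair the libraries (largest correlation of deviations 0.07), and the replicate block gave 3222 pairs and 108 baits. Other causes of these changes were not tested. Of 500 repeats of the named pairs and baits under alternatives, 402 stayed past the threshold in the same direction, 98 kept their direction and did not pass, and none changed direction. Most of the named pairs passed under every alternative, while of the named baits only Gpaa1 did. Named pairs and baits were chosen for large differences in these data, so an unchanged direction was largely set by the choice. Depth is unknown, so whether an unlisted contact is weak or poorly sampled could not be told apart.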
